A study of Homo sapiens with 12 samples.

Results

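The genes described here are 40 genes for collagens, proteoglycans and matrix glycoproteins, taken from the 57169 genes of the deposited count table because their symbols stand on a list of core matrix genes. Of these, 36 held enough counts to be tested among 16519 genes, and COL9A1, COL4A5, ACAN and FBN2 did not. RNA was sequenced in 12 tumours grown from SK-ES1, an established human Ewing sarcoma cell line, in a host animal that the labels do not name. The 6 control libraries are called wild-type, and the other 6 are called knock-down for RING1B, the protein of the gene RNF2. The construct used for silencing, any control construct, and the time of collection are not described in the labels. Each title carries a number and a letter of unstated meaning. There are 8 different numbers, 4 of which label 2 libraries, always of the same group. Nothing in the labels ties a library to an animal of its own, so the p-values reflect the spread between samples, which may be technical.

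The extracellular matrix is the secreted scaffold around cells. Fibrillar collagens form its tension-bearing fibres, while type IV collagen, laminins, nidogens and perlecan form the sheet-like basement membrane under epithelium, around vessels and around muscle. Small leucine-rich proteoglycans bind collagen fibrils and set their spacing, elastin and fibrillin form elastic fibres, and matricellular proteins such as tenascin-C, periostin and SPARC modulate how cells attach. In solid tumours much of this material is made by fibroblasts and pericytes of the stroma, and tumour cells can make it too. RING1B is a ubiquitin ligase of Polycomb repressive complexes that modifies histone H2A. In a xenograft the stroma comes from the host, so host reads that align to human genes can add to these counts.

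RNF2, the targeted gene, was lower in all 6 libraries labelled knock-down. Its level in CPM, counts scaled to a common library size by trimmed mean of M values (TMM) factors, was 46.1, 38.3, 53.8, 52.2, 37.5 and 57.9 in control 1 to 6 and 23.4, 20.4, 12.4, 12.9, 21.0 and 16.3 in knock-down 1 to 6. The groups did not overlap, and the log2 fold change of knock-down over control was -1.43 (SE 0.174, adjusted p = 0.00347 by edgeR). Libraries held 23859184 to 26678325 counts, so that 3 counts, the limit set by a count of 0, corresponded to 0.112 to 0.126 CPM. Markers of Ewing sarcoma cells were abundant, with a summed level of 2348 to 2758 CPM in controls and 2762 to 3287 CPM in knock-down libraries, although CD99, a symbol placed on both the X and Y chromosomes, was at 3 counts or fewer in every library. CCND1, at 1007 to 1322 CPM, and FCGRT, at 452 to 1035 CPM, were large parts of these sums. Of 10 such markers 9 were tested, and 8 had a positive log2 fold change of knock-down over control. In 1 of them, higher in knock-down tumours, the adjusted p was below 0.05 (0.0151 by edgeR). At an adjusted p below 0.05, the threshold for calling a gene throughout, 49 genes were called, 29 higher and 20 lower in knock-down tumours.

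No tested matrix gene was called higher or lower in the knock-down tumours. This is 0 of 36 members, where 0.297% of all tested genes were called by edgeR's quasi-likelihood test. At an unadjusted p below 0.05 there were 11 of 36 members (30.6%), beside 2091 of 16519 genes (12.7%). These 11 include COL4A2, FN1, TNC and NID2, each far higher in knock-down 4 than in any other library. Such members ran from 5 (without control 4) to 16 (without knock-down 4) over the alternative settings, and limma-voom gave 6. A positive log2 fold change was found in 17 of 36 members, and the median over the members was -0.05, beside 0.01 over all tested genes. The groups overlapped in all 36 tested members, whereas 1.22% of all tested genes had groups that did not overlap. The tool limma-voom called 0 members, against 0.315% of genes. DESeq2 called COL9A3 and DCN, against 1.79% of genes.

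Members were far more variable between tumours of 1 group than other genes were. The median SD of log2 CPM within groups was 0.645 over the 36 members and 0.301 over all tested genes. Among genes with a mean of at least 10 CPM the same quantity was 0.581 for 26 members and 0.236 for 9776 genes. In 11 members the highest library exceeded the lowest by more than 10 times, with LAMA1, which was at 0 in control 6, left out. The members together took 0.235% to 0.373% of the counts of a control library, with the highest share in control 5. In knock-down libraries they took 0.167% to 0.244%, except in knock-down 4, where they took 0.617%. Knock-down 4 was the highest of the 12 libraries in 18 members and control 5 in 7, while knock-down 3 was lowest in 13 and knock-down 5 in 9. Knock-down 3 and knock-down 4 share their title number, and in 8 members they were the opposite ends of the 12 libraries.

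**Figure D1:**
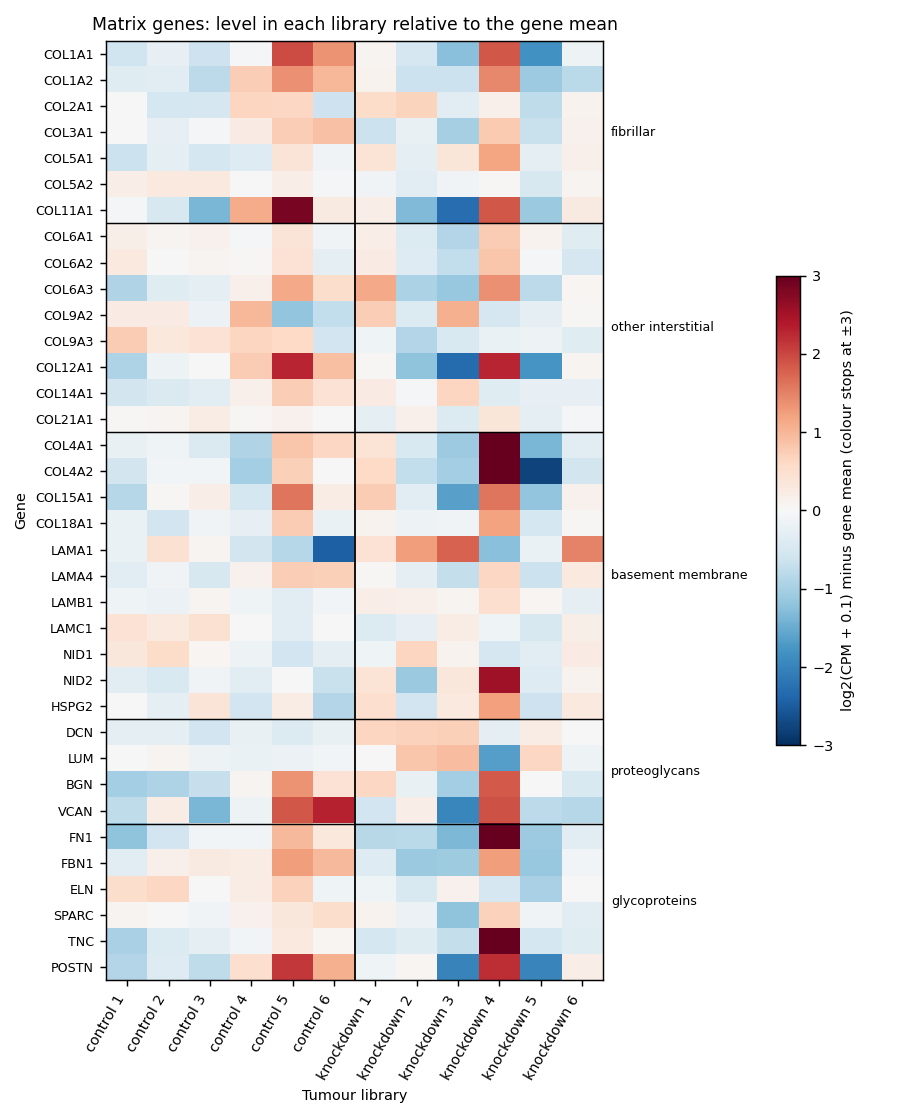
Level of each tested member in each library as log2(CPM + 0.1) minus the mean of that gene over the 12 libraries, with genes in rows by role and libraries in columns by group. Knock-down 4 holds the highest value in 18 of 36 rows and knock-down 3 the lowest in 13.

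Per length of transcript, the matrix mRNA was led by SPARC, COL5A2 and COL3A1. The measure here is RPKM, the CPM per kilobase of annotated exon, as the mean over all 12 libraries, which allows levels of different genes to be set side by side. It was 60.3 RPKM for SPARC, 49.2 for COL5A2, 41.0 for COL3A1, 26.9 for COL9A2, 26.4 for LAMB1 and 25.3 for COL1A1. SPARC is a collagen-binding matricellular protein, COL5A2 a chain of the type V collagen that starts fibrils, COL9A2 a chain of the type IX collagen best known from cartilage, and LAMB1 the laminin beta chain found in most basement membranes. At least 10 RPKM was reached by 14 of 40 members and at least 1 RPKM by 22. Chains that assemble into 1 protein were not equally abundant. The RPKM ratio of COL6A1 to COL6A2 was 0.819 to 1.01 over the libraries, whereas that of COL6A1 to COL6A3, the long chain of the same type VI collagen, was 18.4 to 76.4. The RPKM ratio of COL1A1 to COL1A2 was 0.956 to 2.64, with a median of 1.80. These ratios depend on the annotated exon length, which includes exons that a tumour may not use.

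**Figure D2:**
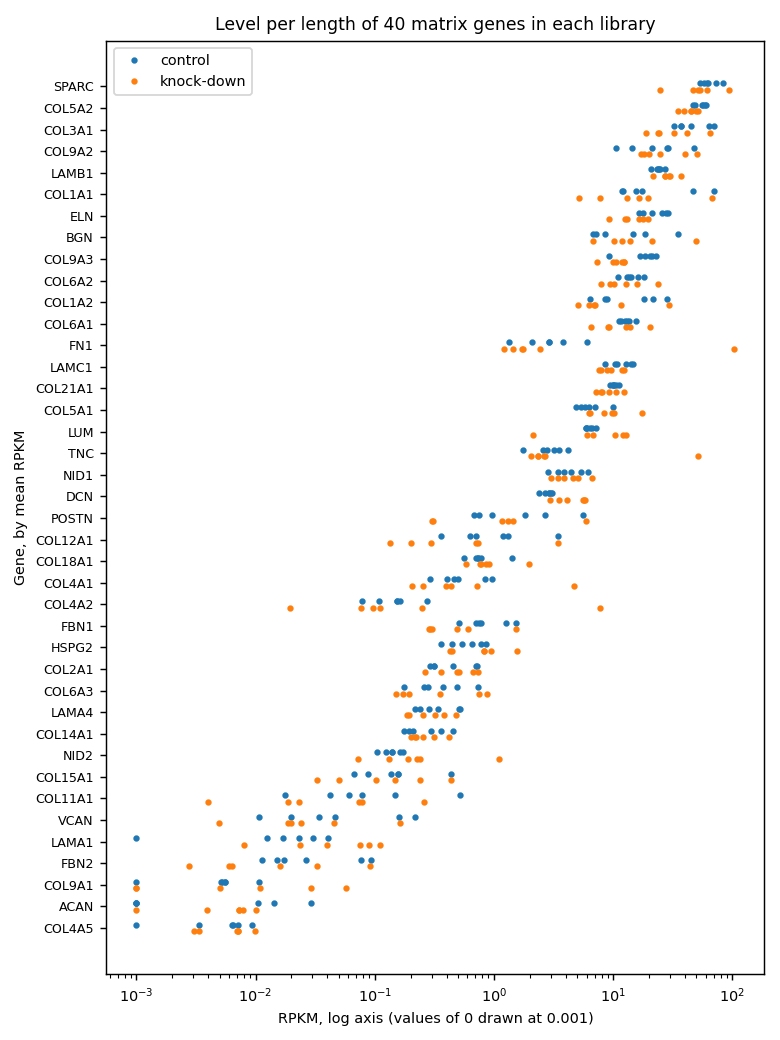
RPKM of every member in each library (points) on a log axis, in control and knock-down tumours, with genes ordered by their mean and values of 0 drawn at 0.001. SPARC is highest at a mean of 60.3 RPKM over all libraries, and the means of COL4A5, ACAN and COL9A1 are at or below 0.0113 RPKM.

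Among the fibrillar collagens, 0 of 7 tested genes were called, and 2 had a positive and 5 a negative log2 fold change (median -0.43, or -0.75 without knock-down 4). COL5A2 (chr2:189031896-189225312, minus strand of hg38) was the steadiest of the abundant ones, at 347, 416 and 446 CPM (lowest, median and highest) in control and 259, 336 and 382 CPM in knock-down tumours. Knock-down 4 and 6 lay within the control range and the other knock-down libraries below it. Its mean was 405 ± 42.0 CPM in controls and 329 ± 47.1 CPM in knock-down tumours (SD, n = 6 each), a log2 fold change of -0.30 (SE 0.110, adjusted p = 0.284 by edgeR). COL5A1 (chr9:134641774-134844843, plus strand), the partner chain of type V collagen, had the opposite sign. It was at 55.0, 67.6 and 112 CPM in controls and 69.8, 102 and 194 CPM in knock-down tumours, with the highest values in knock-down 4 and knock-down 1 and with control 2, control 5 and control 6 inside the knock-down range. Its log2 fold change was 0.57 (SE 0.237, adjusted p = 0.341 by edgeR), and 0.32 without knock-down 4. The RPKM ratio of COL5A2 to COL5A1 was accordingly 5.60 to 11.3 in control tumours, and 2.88 to 6.26 in knock-down tumours, and was not tested.

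The type I and type III collagens, the bulk of connective tissue fibres, did not follow the groups. COL1A1 (chr17:50183289-50201632, minus strand) was at 118, 162 and 695 CPM in controls and 50.9, 145 and 658 CPM in knock-down tumours. The 3 high libraries were control 5 at 695, knock-down 4 at 658 and control 6 at 455 CPM, and the next was knock-down 1 at 192 CPM. The log2 fold change was -0.43 (SE 0.590, adjusted p = 0.801 by edgeR), -1.23 without knock-down 4 (adjusted p = 0.370) and 0.04 without control 5. COL3A1 (chr2:188974320-189012746, plus strand) was at 219, 281 and 476 CPM in controls and 129, 193 and 446 CPM in knock-down tumours. Its highest libraries were again control 6, knock-down 4 and control 5, and its log2 fold change was -0.47 (SE 0.280, adjusted p = 0.517 by edgeR), or -0.75 without knock-down 4 (adjusted p = 0.232). COL1A2 ranged from 70.7 to 313 CPM in controls and 56.9 to 331 CPM in knock-down tumours. COL2A1, the cartilage collagen, and COL11A1, its minor fibril partner, stayed at or below 4.91 CPM. Summed over the class, the level was 1982 CPM in control 5, 1602 in control 6, 2007 in knock-down 4 and 602 to 1115 CPM in the other 9 libraries.

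The other interstitial collagens, types VI, IX, XII, XIV and XXI, held 1 of the members nearest to the threshold. COL9A3 (chr20:62816244-62841159, plus strand), a chain of type IX collagen, was at 44.3, 94.4 and 112 CPM in controls and 35.8, 54.3 and 59.8 CPM in knock-down tumours. Of the controls, 5 lay above every knock-down library and control 6, the lowest, lay inside the knock-down range. The mean was 88.3 ± 24.0 CPM in controls and 52.0 ± 9.22 CPM in knock-down tumours (SD, n = 6 each), and the log2 fold change was -0.76 (SE 0.190, adjusted p = 0.118 by edgeR). Without control 6 it was -0.90 and was called (adjusted p = 0.0128 by edgeR). COL9A2 (chr1:40300487-40317813, minus strand), a chain of the same collagen, was at 44.5, 105 and 202 CPM in controls and 72.4, 94.3 and 213 CPM in knock-down tumours, with no separation of the groups. Its log2 fold change was 0.17 (SE 0.346, adjusted p = 0.877 by edgeR) and took the opposite sign, -0.08, without knock-down 3. The third chain, COL9A1, had at most 10 counts in a library and 24 in all. In the whole class 0 of 8 tested genes were called, 2 were positive, and the median log2 fold change was -0.11 (-0.29 without knock-down 4). Fibril-associated COL12A1 ranged from 1.68 to 43.4 CPM, with 43.4 in control 5, 43.3 in knock-down 4, and 16.3 CPM in control 6 as the next value. COL21A1 was steady, at 67.0 to 79.1 CPM in controls and 50.9 to 87.2 CPM in knock-down tumours.

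The basement membrane class held the gene with the widest gap between its highest library and the next, COL4A2. COL4A1 and COL4A2, the chains of the common type IV collagen network, lie head to head on chromosome 13 and share 1 promoter region, shown here because both genes were high in the same library. RefSeq (GRCh38.p14) places their start sites at 110307157 (COL4A1, minus strand) and 110307284 (COL4A2, plus strand). The 126 bases between them, chr13:110307158-110307283, read 5′ to 3′ on the plus strand, with a CCAAT box and a GC box (GGGCGG) in capitals:
COL4A1 and COL4A2: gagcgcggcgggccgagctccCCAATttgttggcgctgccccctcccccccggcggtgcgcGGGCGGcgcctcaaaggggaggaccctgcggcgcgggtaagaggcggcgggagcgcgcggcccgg
Searched on both strands, CCAAT was present in 21.1% and GGGCGG in 34.6% of the last 126 bases before the start of 35116 RefSeq promoters. The motifs TGACGTCA, TGANTCA and TATAA were not found in these letters. A match describes the letters and is not a measured binding site.

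COL4A2 (chr13:110305812-110513209 in GENCODE) was at 1.51, 2.95 and 5.25 CPM in controls and 0.376, 1.99 and 149 CPM in knock-down tumours. The value of 149 CPM was that of knock-down 4, 28.4 times the next library, and the other 5 knock-down libraries overlapped the controls. The fitted log2 fold change was 3.15 (SE 1.23, adjusted p = 0.317 by edgeR) with this library and -0.48 (adjusted p = 0.719) without it. COL4A1 (chr13:110148963-110307233) was at 4.30, 7.09 and 14.3 CPM in controls and 3.05, 6.15 and 69.6 CPM in knock-down tumours, with 69.6 CPM again in knock-down 4. Its log2 fold change was 0.96 (SE 0.672, adjusted p = 0.580 by edgeR), and -0.52 without that library. The RPKM ratio of COL4A1 to COL4A2 was 0.611 in knock-down 4 and 2.62 to 10.6 in the other 11 libraries, so the chains stood above the other libraries by unequal factors there.

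NID2 (chr14:52004803-52069228, minus strand), a nidogen that links laminin to type IV collagen, was at 0.670, 0.890 and 1.11 CPM in controls and 0.465, 1.34 and 7.11 CPM in knock-down tumours. Knock-down 4 held the 7.11 CPM, 4.61 times the next library. The log2 fold change was 1.22 (SE 0.524, adjusted p = 0.353 by edgeR), and 0.30 without knock-down 4. Of the exonic bases of NID2, 30.0% lie opposite exons of RTRAF, and because no strand setting is stated, reads of the pair cannot be told apart. LAMA1 (chr18:6941744-7117814, minus strand), the laminin alpha chain of early embryonic basement membranes, was at 0, 0.321 and 0.645 CPM in controls and 0.128, 0.909 and 1.75 CPM in knock-down tumours. These are low counts, and here knock-down 4 was the lowest knock-down library. The log2 fold change was 1.47 (SE 0.613, adjusted p = 0.340 by edgeR), and 11.1% of its exonic bases overlap other genes.

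LAMB1 (chr7:107923799-108003255, minus strand) was the most abundant basement membrane gene, at 170, 196 and 224 CPM in controls and 176, 231 and 303 CPM in knock-down tumours. The groups overlapped, with knock-down 6 below the control median, and the log2 fold change was 0.26 (SE 0.117, adjusted p = 0.381 by edgeR). LAMC1, the gamma chain that pairs with it, was at 71.4 to 123 CPM in controls and 63.8 to 104 CPM in knock-down tumours, a log2 fold change of -0.29. Across the class, 0 of 11 tested genes were called, 8 had a positive log2 fold change and the median was 0.26. Without knock-down 4 the class median was -0.08, with 5 of 11 positive. The summed level was 681 CPM in knock-down 4 and 314 to 409 CPM in the other 11 libraries. Type XV and type XVIII collagens, LAMA4, NID1 and HSPG2 (perlecan) had adjusted p of 0.536 or more and levels from 0.218 to 38.9 CPM.

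**Figure D3:**
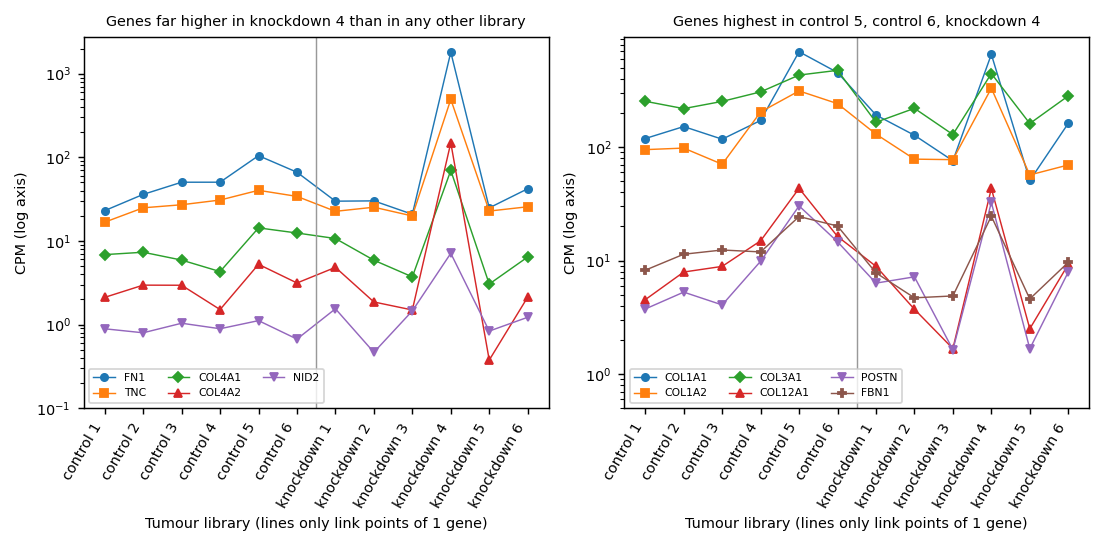
CPM on log axes in each of the 12 libraries for genes far higher in knock-down 4 than elsewhere (left: FN1, TNC, COL4A1, COL4A2, NID2) and for genes highest in control 5, control 6 and knock-down 4 (right: COL1A1, COL1A2, COL3A1, COL12A1, POSTN, FBN1). Lines only link the points of 1 gene, and FN1 in knock-down 4 stands at 1806 CPM against 20.8 to 105 CPM elsewhere.

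Among the proteoglycans of the interstitial matrix, DCN had the smallest p of all members. Decorin, its protein, binds type I collagen fibrils and several growth factors. DCN (chr12:91140484-91183123, minus strand) was at 30.5, 37.2 and 39.1 CPM in controls and 37.8, 62.2 and 74.2 CPM in knock-down tumours. The controls lay in a narrow band, and 5 knock-down libraries lay above all of them while knock-down 4, at 37.8 CPM, lay within it. The mean was 36.2 ± 3.24 CPM in controls and 59.2 ± 16.1 CPM in knock-down tumours (SD, n = 6 each). The log2 fold change was 0.71 (SE 0.161, 95% interval 0.37 to 1.05, adjusted p = 0.0844 by edgeR), which did not pass the threshold. Without knock-down 4 it was 0.81 and was called (adjusted p = 0.0220 by edgeR), where 0.473% of genes were called. An exact permutation test (two-sided, over every division of the libraries into 6 and 6) gave p = 0.00649 for DCN, and p = 0.182 once adjusted over the 36 tested members by the Benjamini-Hochberg method.

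LUM (lumican), a neighbour of DCN on chromosome 12 and a member of the same leucine-rich family, was also narrow in control tumours, at 17.7 to 21.6 CPM. It was at 6.34 to 38.5 CPM in knock-down tumours, with the 6.34 CPM in knock-down 4, and its log2 fold change was 0.39 (adjusted p = 0.615 by edgeR). BGN (biglycan), the close relative of decorin, had another pattern, with 122 CPM in knock-down 4, 86.6 CPM in control 5 and 16.6 to 51.9 CPM in the other 10 libraries. VCAN (versican) stayed at or below 3.22 CPM, and ACAN (aggrecan) had at most 8 counts in a library. In the class 0 of 4 tested genes were called, 3 were positive, and the median log2 fold change was 0.35 (2 positive and 0.17 without knock-down 4).

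Fibronectin, elastic fibre and matricellular glycoproteins held the largest single value of the set. Promoters of FN1 and TNC are shown because these genes exceeded 10 times their next library in knock-down 4. The stretches are the 250 bases before the RefSeq start (GRCh38.p14), read 5′ to 3′ on the minus strand, at chr2:215436069-215436318 for FN1 and chr9:115118158-115118407 for TNC. Capitals mark each match to the 4 motifs found, which are named after the sequences, with overlapping GC boxes joined:
FN1: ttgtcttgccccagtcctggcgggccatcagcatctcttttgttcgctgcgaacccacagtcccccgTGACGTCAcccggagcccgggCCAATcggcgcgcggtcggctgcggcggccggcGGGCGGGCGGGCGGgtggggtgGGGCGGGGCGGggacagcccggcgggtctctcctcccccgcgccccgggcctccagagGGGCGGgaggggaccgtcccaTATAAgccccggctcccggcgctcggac
TNC: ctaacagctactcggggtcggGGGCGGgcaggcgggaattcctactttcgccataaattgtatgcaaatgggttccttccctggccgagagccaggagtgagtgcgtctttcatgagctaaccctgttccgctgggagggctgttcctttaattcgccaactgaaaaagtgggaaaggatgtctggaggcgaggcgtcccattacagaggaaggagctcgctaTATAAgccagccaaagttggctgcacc
Both hold TATAA near the start site, found in 18.9% of all 35116 RefSeq promoters over 250 bases, and GGGCGG, found in 42.6%. FN1 also holds TGACGTCA, the cyclic AMP response element, found in 1.65% of promoters, and CCAAT, found in 32.0%, which TNC lacks in this window. TGANTCA, the AP-1 motif, was found in neither and in 6.57% of all promoters.

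FN1 (chr2:215360440-215436172 in GENCODE), whose protein fibronectin links cells to collagen through integrins, was at 23.0, 50.4 and 105 CPM in controls and 20.8, 30.0 and 1806 CPM in knock-down tumours. Knock-down 4 held the 1806 CPM, 17.3 times the next library, control 5. The other 5 knock-down libraries, at 20.8 to 42.0 CPM, overlapped the lower part of the control range. With knock-down 4 the log2 fold change was 2.56 (SE 1.13, adjusted p = 0.367 by edgeR), and without it -0.90 (adjusted p = 0.280). TNC (chr9:115019578-115118257 in GENCODE), the gene of tenascin-C, was at 16.8, 28.9 and 40.3 CPM in controls and 19.9, 24.0 and 493 CPM in knock-down tumours. The 493 CPM, 12.2 times the next library, was again that of knock-down 4. Its log2 fold change was 1.81 (SE 0.818, adjusted p = 0.380 by edgeR) with that library and -0.32 without it. DESeq2 gave no adjusted p for FN1, TNC, COL4A1 and COL4A2, genes it marks as holding an extreme count.

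ELN (chr7:74027789-74069907, plus strand), the elastin gene, was at 108, 153 and 188 CPM in controls and 60.1, 96.9 and 129 CPM in knock-down tumours. The groups overlapped between 108 and 129 CPM, where 2 control and 2 knock-down libraries lay. Its mean was 150 ± 34.0 CPM in controls and 96.9 ± 25.2 CPM in knock-down tumours (SD, n = 6 each), and the log2 fold change was -0.63 (SE 0.186, adjusted p = 0.189 by edgeR). SPARC (chr5:151661096-151687165, minus strand) was at 259.5, 299.9 and 399.9 CPM in controls and 120.5, 252 and 453 CPM in knock-down tumours, with knock-down 3 lowest and knock-down 4 highest. The log2 fold change of SPARC was -0.24 (SE 0.226, adjusted p = 0.687 by edgeR). FBN1 (fibrillin) and POSTN (periostin) were each highest in control 5 and knock-down 4, at 24.5 and 24.7 CPM for FBN1 and 30.3 and 32.5 CPM for POSTN. The log2 fold change of FBN1 was -0.66 (adjusted p = 0.524 by edgeR), or -1.22 without knock-down 4 (adjusted p = 0.0981). Without control 5, control 6 and knock-down 4 it was -0.80 (adjusted p = 0.112). That of POSTN was -0.25 (adjusted p = 0.912 by edgeR), or -1.19 without knock-down 4 (adjusted p = 0.461). FBN2 had 31 counts in control 5, 28 in knock-down 4, 24 in control 6 and 128 in all. In the class 0 of 6 tested genes were called, 2 were positive, and the median log2 fold change was -0.25. Leaving out knock-down 4 gave 0 of 6 positive and a median of -0.74.

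**Figure D4:**
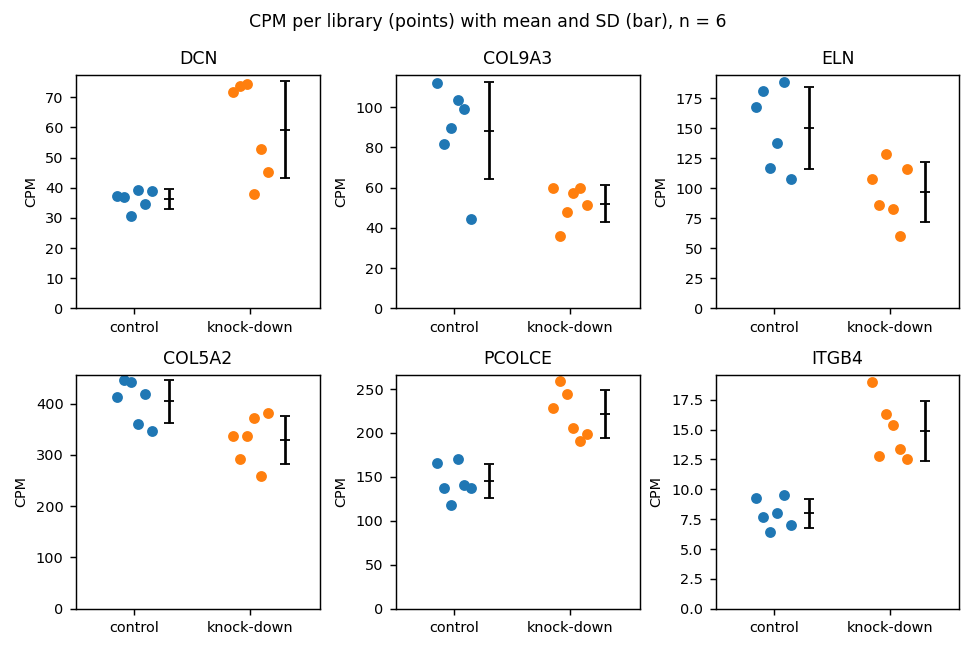
CPM of single libraries (points) in control and knock-down tumours, with the mean and SD beside them, for the 4 members with the smallest p (DCN, COL9A3, ELN, COL5A2) and for PCOLCE and ITGB4. DCN runs from 30.5 to 39.1 CPM in controls and from 37.8 to 74.2 CPM in knock-down tumours, and COL9A3 from 44.3 to 112 CPM and 35.8 to 59.8 CPM.

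The direction of the list as a whole rested on single libraries. With all libraries 17 of 36 members had a positive log2 fold change, 11 without knock-down 4 and 22 without control 5. The median over members was -0.33 without knock-down 4 and 0.12 without control 5. COL6A3, COL4A1, COL4A2, COL18A1, BGN, FN1 and TNC were positive with knock-down 4 and negative without it. Control 5, control 6 and knock-down 4 were the 3 highest libraries in 12 members (33.3% of 36), and in 526 of 16519 genes (3.18%). The 12 were COL1A1, COL1A2, COL3A1, COL12A1, COL4A1, LAMA4, VCAN, FN1, FBN1, SPARC, TNC and POSTN. The libraries were picked after seeing the levels of the members. The difference between the 2 shares was therefore partly set by that choice and is not a test. All 3 libraries carry the title letter E, which is on 4 control and 2 knock-down libraries. Without these 3 libraries, a choice made after seeing the data, COL9A3 and DCN were called, with log2 fold changes of -0.93 and 0.81.

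Markers of other cell types moved with these libraries in part. The 12 macrophage and leukocyte markers summed to 28.6 CPM in control 5, 23.0 in control 6 and 37.6 in knock-down 4. The sum was 6.86 to 19.1 CPM in the other 9 libraries. Of these markers 7 were tested, and C1QA was at 3 counts or fewer everywhere. LYZ, at 15.3 CPM, and AIF1, at 10.8 CPM, led the sum in knock-down 4. LYZ, AIF1, CSF1R, C1QB and TYROBP had control 5, control 6 and knock-down 4 as their highest libraries. CD68, CD14, PTPRC, ITGAM, FCER1G and LAPTM5 did not. The 15 fibroblast and pericyte markers, 10 of them tested, summed to 142 to 253 CPM in controls and 125 to 274 CPM in knock-down libraries. Their highest sum, 274 CPM, was in knock-down 4, but control 6, at 142 CPM, had the lowest sum of the controls. NOTCH3, at 36.3 to 99.9 CPM, and PDGFRB, at 34.8 to 101 CPM, were large parts of these sums. TCF21 and LRRC15 were at 3 counts or fewer in every library. PDGFRA was low, at 1.13 CPM in control 6, 0.852 in knock-down 4, 0.716 in control 5 and 0.0394 to 0.271 CPM elsewhere. DPT, also low, was highest in control 6, at 1.09 CPM, and next in knock-down 4, at 0.554 CPM. CLEC3B was lowest in control 6, at 0.251 CPM. ACTA2, the smooth muscle actin of activated fibroblasts and pericytes, was at 50.2 CPM in knock-down 4, 29.1 in control 5 and 5.86 to 14.3 CPM elsewhere. TAGLN had the same pattern, at 32.3 CPM in knock-down 4, 19.3 in control 5 and 3.85 to 8.86 CPM elsewhere. PDPN was highest in control 5, at 7.92 CPM, and next in knock-down 4, at 4.05 CPM. THY1 was highest in knock-down 4, at 25.5 CPM, with control 4 next at 21.2 CPM. FAP, PDGFRB, RGS5, CSPG4 and NOTCH3 did not follow ACTA2. FAP was lowest of all libraries in knock-down 4, at 7.37 CPM against 9.27 to 23.1 CPM elsewhere. PDGFRB, a pericyte receptor, was at 63.1 CPM in knock-down 4, 46.5 in control 5 and 34.8 in control 6. The 12 endothelial markers summed to 117 to 214 CPM in controls and 128 to 172 CPM in knock-down libraries. ENG, at 48.9 to 117 CPM, and EGFL7, at 46.5 to 82.5 CPM, made up most of these sums. FLT1, CDH5, TIE1, PECAM1, CLDN5 and ROBO4 were highest in knock-down 4, where FLT1 was at 10.1 CPM against 0.116 to 1.17 elsewhere. EMCN was lowest there, at 5.37 CPM, and ENG, EGFL7, KDR, TEK and ESAM were highest in other libraries. The part of host or other cells in the matrix values was not tested, and tumour reads, host reads, the number of cells and the RNA per cell cannot be told apart in these bulk counts.

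Among genes that process, degrade or bind matrix, 2 were called, both higher in knock-down tumours. The lists held 29 tested genes of collagen processing, 23 of matrix proteolysis, 26 matrix receptors and 62 other core matrix genes. Of all tested genes 0.297% were called. PCOLCE, the enhancer of procollagen C-proteinase, rose in the knock-down tumours. It was at 119 to 170 CPM in controls and 191 to 259 CPM in knock-down tumours, with no overlap, a log2 fold change of 0.61 (SE 0.111, adjusted p = 0.0298 by edgeR). The call was lost on leaving out control 1, 2, 3 or 5 or knock-down 1, 2 or 3 (adjusted p 0.0252 to 0.0972 over all 12 omissions), and 16.6% of its exonic bases lie opposite PCOLCE-AS1. With the title letter as a covariate the adjusted p of PCOLCE was 0.0531, and with counts summed by title number that of PCOLCE and ITGB4 alike was 0.0769. It was 1 of 29 tested genes of collagen processing, of which 0 were called lower. P3H2, a prolyl hydroxylase of type IV collagen, was next in that list, at 19.9 ± 2.22 CPM in controls and 28.4 ± 4.41 CPM in knock-down tumours (SD, n = 6 each; adjusted p = 0.0951 by edgeR).

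ITGB4, the integrin beta subunit that binds laminin in hemidesmosomes, also rose. It was at 6.42 to 9.51 CPM in controls and 12.5 to 19.0 CPM in knock-down tumours. The groups did not overlap, and the log2 fold change was 0.90 (SE 0.145, adjusted p = 0.0152 by edgeR). Leaving out control 2, control 3 or knock-down 1 ended the call (adjusted p 0.0196 to 0.0556 over all 12 omissions). It was 1 of 26 tested receptors, 15 of which had a positive log2 fold change. DDR2, a collagen receptor kinase, stood at 137 CPM in knock-down 4 and had an adjusted p of 0.167. Of 23 tested genes of matrix proteolysis 0 were called, although 18 were positive with a median log2 fold change of 0.35, and MMP1, an interstitial collagenase, stood at 342 CPM in knock-down 4 and 2.09 to 11.5 CPM elsewhere (adjusted p = 0.266 by edgeR). MMP11, stromelysin-3, had a log2 fold change of 0.86 (adjusted p = 0.193 by edgeR). Of 62 other tested core matrix genes 0 were called, with a median log2 fold change of 0.03, and the smallest p was that of COL19A1 at 31.5 ± 8.06 CPM in controls and 18.2 ± 4.70 CPM in knock-down tumours (SD, n = 6 each; adjusted p = 0.0951 by edgeR). HAPLN2, a hyaluronan link protein, had a log2 fold change of 1.51 (adjusted p = 0.167 by edgeR). Its counts were low, at 0.111 to 0.438 CPM in controls and 0.254 to 1.15 CPM in knock-down tumours.

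**Figure D5:**
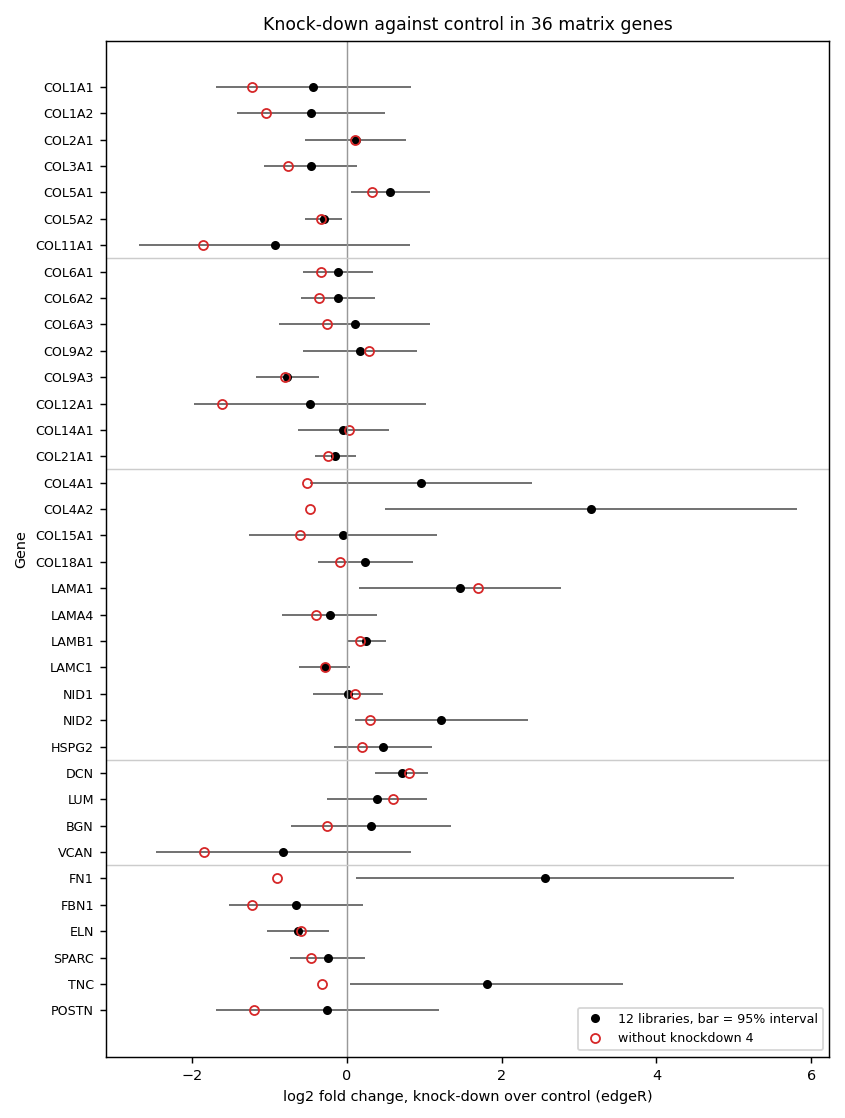
Log2 fold change of knock-down over control for each tested member with its 95% interval, with all 12 libraries and without knock-down 4. COL4A2 moves from 3.15 to -0.48 and FN1 from 2.56 to -0.90, while DCN stays at 0.71 and 0.81.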

How the data were processed

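The authors deposited 1 table of raw read counts per gene for 12 libraries. Per the labels' protocols, RNA came from a column kit and libraries from a stranded, polyadenylated-RNA kit. The submitters' processing notes name hg38, STAR 2.6.0a, featureCounts, FastQC, R 3.6.0 and limma 3.40.2. How strand and multiply aligned reads were handled in counting, and whether host reads were removed, is not given in the sources used here. For all 40 members the exons were those of GENCODE release 29.

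Counts were analysed in R 4.3.3. Genes kept by filterByExpr of edgeR 4.0.16 (16519 genes with at least 99.72% of the counts of each library) were scaled by TMM and tested with robust quasi-likelihood fits in edgeR, with no covariate. P-values were adjusted over all tested genes by the Benjamini-Hochberg method and called below 0.05. The fit was checked on simulated counts drawn independently for each library. These held no outlying library and no shared title number, so the check does not cover those features of the data. No pair of libraries within a group agreed within sampling noise (lowest chi-square per degree of freedom 12.05 over 30 pairs). RPKM used exon lengths of the count table. Full values were given for RNF2, the 10 members with the smallest p and the 6 with the highest RPKM. From each pathway list, called genes and the 2 smallest p were named. Members and lists were chosen with earlier results of these data known. Alternatives were other scalings, filters, DESeq2 1.42.0, voom of limma 3.58.1, the title number or letter, and omitted libraries. RefSeq promoters existed for 28 of the 40 members.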

Additional observations from a re-analysis of the deposited data

Results flagged for a closer look

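For the tested members, the named pathway genes and RNF2, each group of 6 libraries was searched for a library far from the rest. A library was flagged by its gap to the nearest neighbour as a share of the group's range (Dixon's ratio, above its 95% critical value). This held in 23 of 90 groups, where chance gives about 1 in 20 for independent, normally spread values, and 19 of the 23 were in the 72 groups of members (26.4%). Over all tested genes it held in 10.5% of 33038 groups. Knock-down 4 stood apart in 15 of 36 members (41.7%) and 5.80% of all genes, control 5 in 4 members (11.1%) and 1.43% of genes, and control 6 in 0 members and 9.03% of genes. Genes that share a library are not independent, and knock-down 4 accounted for 17 of the 23.

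In knock-down 4 the fibrillar collagen genes COL1A1 (658 CPM, others of the group 50.9 to 192), COL1A2 (331 CPM, others 56.9 to 130.4), COL5A1 (194 CPM, others 69.8 to 114) and COL11A1 (2.34 CPM, others 0.0364 to 0.709) stood above the other 5 knock-down libraries. So did COL12A1 at 43.3 CPM (others 1.68 to 9.26). Of the basement membrane genes, COL4A1 stood at 69.6 CPM (others 3.05 to 10.7), COL4A2 at 149 CPM (others 0.376 to 4.83), COL18A1 at 16.7 CPM (others 4.93 to 7.72) and NID2 at 7.11 CPM (others 0.465 to 1.54). The proteoglycan genes BGN, at 122 CPM (others 16.6 to 51.9), and VCAN, at 2.43 CPM (others 0.0728 to 0.677), were high there too. The glycoprotein genes were FN1 at 1806 CPM (others 20.8 to 42.0), TNC at 493 CPM (others 19.9 to 25.6), FBN1 at 24.7 CPM (others 4.59 to 9.65) and POSTN at 32.5 CPM (others 1.64 to 7.92). MMP1 at 342 CPM (others 2.09 to 11.5) and the collagen receptor gene DDR2 at 137 CPM (others 24.5 to 62.3) were the pathway genes.

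In control 5 the members were COL11A1 at 4.69 CPM (other controls 0.159 to 1.36), COL12A1 at 43.4 CPM (others 4.52 to 16.3), COL15A1 at 2.90 CPM (others 0.445 to 1.05) and COL18A1 at 12.2 CPM (others 4.82 to 6.70). HAPLN2 stood at 0.438 CPM there (others 0.111 to 0.232). In control 6 it was MMP1, at 10.8 CPM (others 2.39 to 4.98).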

How the results depend on the processing

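With all libraries edgeR called 49 genes (0.297% of those tested), 0 members and 2 genes of the matrix pathway lists (PCOLCE and ITGB4). Leaving out each library in turn gave 16 to 79 genes (0.0956% to 0.473%). It gave 0 to 1 members (COL9A3 without control 6, DCN without knock-down 4) and 0 to 3 pathway genes. DESeq2 called 346 genes (1.79%), 2 members (COL9A3, DCN) and 6 pathway genes. Limma-voom with quality weights called 479 genes (2.9%), 3 members (COL9A3, DCN, ELN) and 10 pathway genes. With no filter on low counts 1 member (DCN) was called, where 0.172% of genes were called. The title letter as a covariate gave 28 genes (0.17%) and 1 pathway gene, and counts summed by title number 7 genes (0.039%) and 0 pathway genes. The title number as a random effect gave 87 genes (0.527%). That model fitted a correlation of -0.125 between libraries sharing a number, so it did not treat them as more alike. At an adjusted p of 0.01 there were 3 genes and 0 pathway genes. Without control 6, knock-down 4 and knock-down 5 the calls were 108 genes (0.644%), 2 members (COL9A3, DCN) and 4 pathway genes. Without control 5, control 6 and knock-down 4, an alternative chosen after seeing the data, they were 156 genes (0.931%), 2 members (COL9A3, DCN) and 5 pathway genes. The causes of these shifts were not tested, and the stricter threshold and smaller sets of libraries change the counts by construction. The median log2 fold change over members ran from -0.33 to 0.12 when 1 library was left out and from -0.24 to -0.01 under the other alternatives. Over the alternatives other than omission of 1 library, the adjusted p of DCN was 0.00951 to 0.188 and that of COL9A3 0.00755 to 0.335. At these depths COL9A1, COL4A5, ACAN and FBN2 held too few counts for a comparison.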
